A study of Solanum lycopersicum with 6 samples.

Results

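The 9 genes described here make and control the outer surface of the tomato shoot: CD2, WOOLLY, MIXTA and SHN3 encode transcription factors of the epidermis, GPAT6, CYP86A69, CYP77A and CD1 encode enzymes that build the cutin polymer, and CER6 encodes an enzyme of wax synthesis. They were taken from a list of gene identifiers drawn up from knowledge of tomato cuticle genes, and chosen with earlier results of these data known. All 9 were found once among the 34722 genes of the deposited table. Their levels were measured by RNA sequencing in 6 libraries of shoot apices of tomato (Solanum lycopersicum) that form 3 groups of 2. In wild type (WT) the dissected tissue was the shoot apical meristem together with its 2 youngest leaf primordia. In the leafless (lfs) mutant, whose allele the labels do not give, it was the meristem alone. The third group was a pin-like shoot tip, again the meristem alone, that formed after plants were sprayed with TIBA at 1 mM; TIBA (triiodobenzoic acid) blocks polar auxin transport, and the labels give no genotype for the sprayed plants. Plants of all groups were greenhouse seedlings 14 to 18 days old, fixed in acetone before dissection. Whether repeats were separate sets of plants is not stated, so p-values here reflect only the variation between these libraries, part of which may be technical.

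The aerial epidermis of plants secretes a cuticle, a layer of cutin polyester filled and covered with wax that limits water loss and keeps neighbouring organs from fusing. Cutin is made from fatty acids that are hydroxylated by cytochrome P450 enzymes, joined to glycerol by acyltransferases, exported, and linked into polymer outside the cell. Wax comes from very-long-chain fatty acids built by elongase complexes in the same cells. Transcription factors of the HD-ZIP IV, MYB and SHINE families control these enzymes together with the shape of epidermal cells and the formation of trichomes, the hairs of the epidermis. In the shoot apex the outermost cell layer of the meristem already has epidermal identity and passes it on to each new leaf.

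Libraries held 17640302 to 26054787 gene-assigned reads. LFS, the gene affected in the mutant (Solyc05g013540.1, an identifier recalled from published work and not paired with a name in the files), stood at normalized counts of 707 and 711 in WT, 3031 and 3887 in lfs and 582 and 338 in TIBA pins. A mutation need not lower its own transcript, so this does not check the labels. Of the 9 genes, 8 passed the minimum used for testing, a normalized count of 10 in at least 2 libraries, and these 8 reached 10 in all 6 libraries. SHN3 did not pass.

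The tissue labels were compared with 3 short lists of identifiers, also recalled and not checked by name. These lists too were chosen with earlier results of these data known, so they are no independent check of the labels. The 4 identifiers recalled as leaf primordium genes summed to normalized counts of 12899 and 14156 in WT, against 5241 and 5414 in lfs and 7576 and 5356 in TIBA pins. All 4 fell in both leafless groups (limma, adjusted p under 0.05), beside 5.29% (lfs) and 7.77% (TIBA) of all tested genes called lower. The 3 recalled as shoot meristem genes were read in every library and summed to between 4814 and 7310. In each leafless group 1 of the 3 was called higher, beside 8.90% (lfs) and 10.8% (TIBA) of all tested genes. The other 2 were not called. Their log2 values in lfs and TIBA pins were 0.21 and 0.25 for Solyc02g081120.2, and -0.36 and -0.55 for Solyc02g083950.2. The called identifier, Solyc11g071380.1, singled out after its values were seen, rose in lfs (log2 1.91, limma adjusted p = 0.00722) and in TIBA pins (log2 1.81, limma adjusted p = 0.00826). Without WT replicate 1 neither call held (limma adjusted p = 0.0629 in lfs, range over all alternatives 1.92e-07 to 0.0629, and 0.0617 in TIBA pins, range 1.54e-06 to 0.0617). The 3 recalled as genes of green tissue summed to 12889 and 13855 in WT, 36278 and 22014 in lfs replicates 1 and 2, and 31532 and 45878 in TIBA replicates 1 and 2. Of these 3, 2 rose in lfs and 3 in TIBA pins (limma, adjusted p under 0.05), beside 8.90% and 10.8% of all tested genes called higher. Most of each sum came from 1 identifier: Solyc09g010840.1 for primordium (mean 11106 in WT), Solyc02g081120.2 for meristem (4789) and Solyc03g034220.2 for green tissue (11841). Between the leafless groups, the primordium identifier Solyc05g009380.2 was lower in lfs (mean 3.15 against 98.1, limma adjusted p = 0.00593). The other 3 primordium identifiers were not called there, beside 2.64% of all tested genes called lower in lfs. Solyc05g009380.2 was singled out after its values were seen, and its call was not followed through the alternatives. No member of the 3 lists was at 0 in any library. The leafless samples thus had lower levels of the primordium list and higher levels of the green tissue list than WT. Of the 3 meristem identifiers 1 was called higher and the others were not called. The part of these differences in the results on cuticle genes was not tested. In such bulk samples, fewer epidermal cells and less RNA per epidermal cell cannot be told apart.

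**Figure D1:**
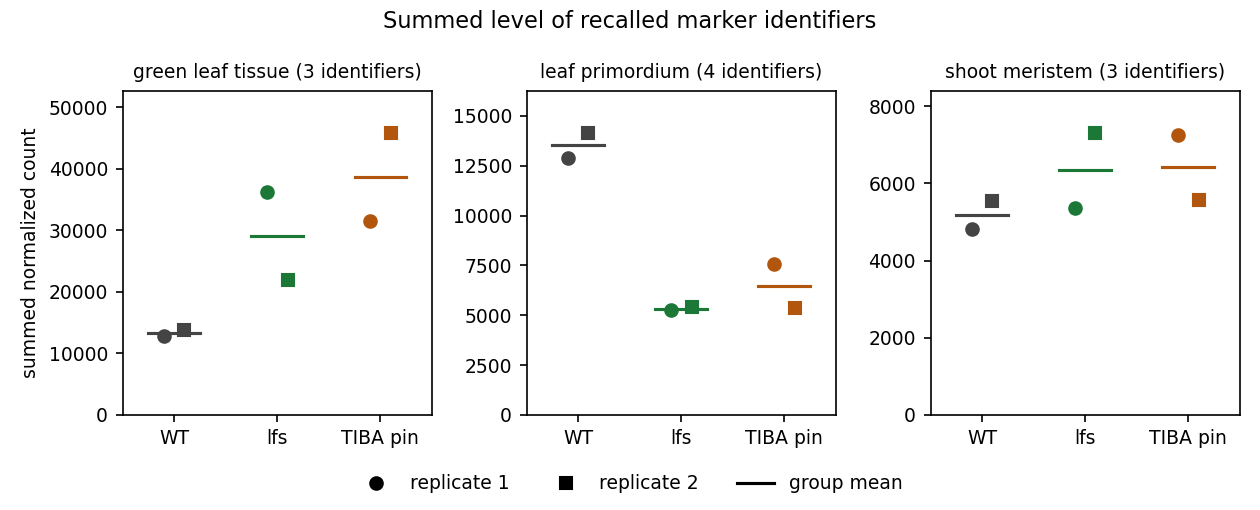
Summed normalized count (y axes, from 0) of the identifiers recalled as green leaf tissue, leaf primordium and shoot meristem genes in each library, with circles for replicate 1, squares for replicate 2 and lines for group means. The green tissue sum lies at 12889 and 13855 in WT and between 22014 and 45878 in the leafless libraries, where lfs replicate 1 is above replicate 2 and TIBA replicate 2 above replicate 1.

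Among the transcription factors, WOOLLY had its highest level in WT and its lowest in TIBA pins, CD2 varied little, MIXTA was lowest in WT, and SHN3 was hardly read. WOOLLY (Solyc02g080260.2, chromosome 2), an HD-ZIP IV factor needed for the large multicellular trichomes of tomato, stood at normalized counts of 4054 and 3847 in WT, 2543 and 2541 in lfs, and 1991 and 1347 in TIBA pins. No group overlapped another, and the order WT, lfs, TIBA held for each pair of libraries. CD2 (Solyc01g091630.2, chromosome 1), an HD-ZIP IV factor known for its need in cutin deposition, stood at 3596 and 3445 in WT, 3737 and 3023 in lfs, and 2745 and 2729 in TIBA pins. Both TIBA libraries were below the other 4, while the lfs libraries enclosed those of WT.

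MIXTA (Solyc02g088190.2, chromosome 2), a MYB factor of epidermal cell shape and cuticle assembly, had normalized counts of 156 and 169 in WT, 311 and 185 in lfs, and 276 and 351 in TIBA pins. Both leafless groups lay above WT and overlapped each other. SHN3 (Solyc06g053240.2, chromosome 6), a SHINE factor of the AP2/ERF family that promotes cutin genes in tomato fruit, had 4 and 3 reads in WT, 2 and 1 in lfs, and 2 and 0 in TIBA pins. Its normalized level per library was 3.09 in WT (exact Poisson 95% interval 1.24 to 6.36), 1.35 in lfs (0.279 to 3.95) and 0.978 in TIBA pins (0.118 to 3.53). These intervals cover counting error only. They overlap, which is no test of a difference, and SHN3 was below the minimum used for testing.

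The cutin enzymes did not share 1 pattern across the groups. CD1 (Solyc11g006250.1, chromosome 11), the extracellular GDSL-type enzyme that links cutin monomers into polymer, stood at normalized counts of 1479 and 1825 in WT, 2939 and 2114 in lfs, and 718 and 966 in TIBA pins. Its groups did not overlap, with lfs highest and TIBA pins lowest. CYP86A69 (Solyc08g081220.1, chromosome 8), a cytochrome P450 that hydroxylates the end of the fatty acid chain, stood at 205 and 253 in WT, 286 and 144 in lfs, and 347 and 463 in TIBA pins. Both TIBA libraries were above the other 4, and lfs enclosed WT.

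GPAT6 (Solyc09g014350.2, chromosome 9), an acyltransferase that joins fatty acids to glycerol 3-phosphate, had normalized counts of 56.6 and 88.4 in WT, 89.1 and 48.0 in lfs, and 54.6 and 136 in TIBA pins. CYP77A (Solyc11g007540.1, chromosome 11), a cytochrome P450 that oxidizes carbons within the fatty acid chain, had 26.0 and 45.9 in WT, 116 and 28.5 in lfs, and 47.2 and 64.6 in TIBA pins. For GPAT6 every group overlapped the others, and for CYP77A lfs overlapped both other groups while the TIBA libraries lay just above WT. Their levels rest on few reads, 59 to 114 for GPAT6 and 29 to 115 for CYP77A per library.

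CER6 (Solyc02g085870.2, chromosome 2), a ketoacyl-CoA synthase that elongates fatty acids for wax, was the only wax gene of the set. It stood at 1135 and 1139 in WT, 1522 and 946 in lfs, and 1828 and 1779.85 in TIBA pins. Both TIBA libraries were above the other 4, whereas the lfs libraries lay on either side of WT.

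**Figure D2:**
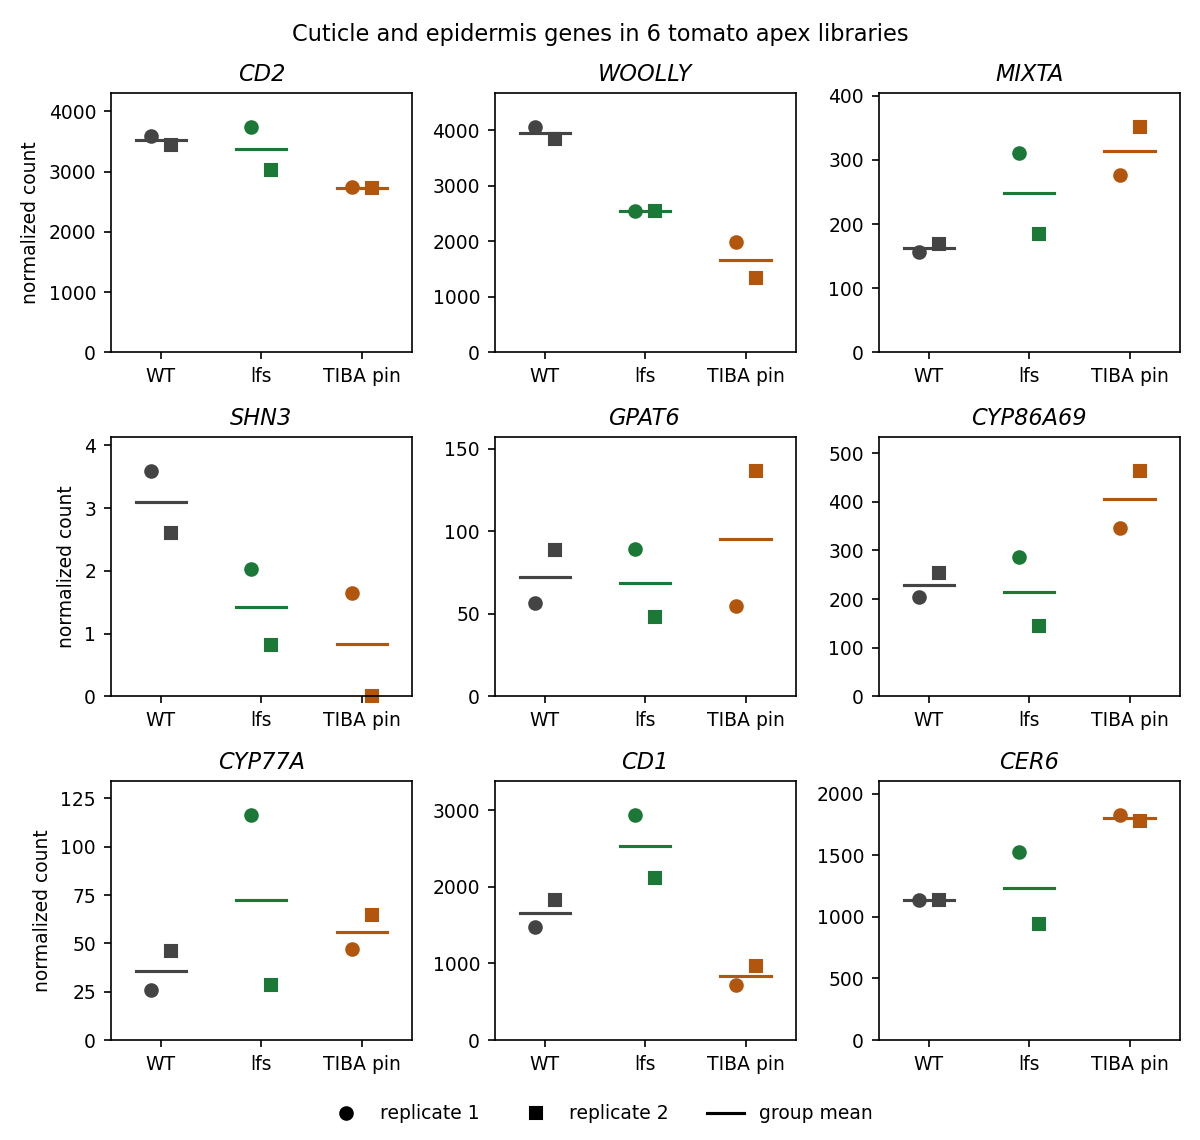
Normalized count (y axes, from 0, a scale of its own per gene) of the 9 genes in the WT, lfs and TIBA pin libraries, with circles for replicate 1, squares for replicate 2 and lines for group means. WOOLLY steps down from 4054 and 3847 in WT to 1991 and 1347 in TIBA pins, CD1 is highest in lfs and lowest in TIBA pins, and in lfs most genes are higher in replicate 1.

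In the TIBA pin, WOOLLY and CD1 fell relative to WT, and limma called no gene of the set higher. DESeq2 called CER6 (log2 0.66, adjusted p = 0.0381) and MIXTA (log2 0.93, adjusted p = 0.0275) higher, as did limma with only the 4 libraries compared. These fits called 4560 and 3045 of all genes, against 3681 with limma on all 6 libraries. WOOLLY was 2.41-fold lower (95% interval 1.76 to 3.31), with a mean of 3950.35 ± 147 (SD, n = 2) for WT and 1669 ± 456 (SD, n = 2) for the pins, a log2 difference of -1.27 (SE 0.19, limma adjusted p = 0.00731). CD1 was 1.97-fold lower (1.37 to 2.83), with means of 1652 ± 244 (SD, n = 2) and 842 ± 175 (SD, n = 2), a log2 difference of -0.98 (SE 0.22, limma adjusted p = 0.0247). With 2 of 8 genes called, both lower, the share stands beside 18.6% of all 19807 tested genes called in either direction and 7.77% called lower. In the same libraries the sum of the leaf primordium list was lower, and that of the green tissue list higher, than in WT, and their part in these changes was not tested.

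The other 6 tested genes did not pass in TIBA against WT. The estimate was above 0 for MIXTA (log2 0.93, SE 0.28, limma adjusted p = 0.0605), CYP86A69 (0.81, SE 0.34, 0.135), CER6 (0.67, SE 0.22, 0.0739), CYP77A (0.66, SE 0.66, 0.509) and GPAT6 (0.29, SE 0.52, 0.729). For CD2 it was -0.36 (SE 0.15, limma adjusted p = 0.132). The groups did not overlap for 7 of the 8 genes, all but GPAT6, as for 66.4% of all tested genes, and 6 of 8 had an unadjusted p under 0.05, beside 34.9%. The median log2 difference was 0.47 over the 8 genes and 0.015 over all tested genes. CD1 was the only one of the 4 cutin enzymes called here.

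Calls in TIBA against WT changed in some fits that left out 1 library. Without WT replicate 1 or 2, neither WOOLLY nor CD1 was called, and fewer of all tested genes were called too. The log2 values were then -1.23 and -1.31 for WOOLLY and -1.13 and -0.83 for CD1. CD1 was also not called without TIBA replicate 1 (log2 -0.77). CER6 (limma adjusted p 0.0228 and 0.0232) and MIXTA (0.043 and 0.0404) were called when lfs replicate 1 or 2 was left out, which alters only the spread and not the estimate, and MIXTA also without TIBA replicate 1 (0.0453). Over all alternatives the adjusted p ran from 0.0228 to 0.28 for CER6 and from 0.0275 to 0.27 for MIXTA.

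In the lfs apex none of the 8 tested genes differed from WT past the test (limma), beside 14.2% of all tested genes. Both edgeR fits and voom also called 0 and DESeq2 called WOOLLY (adjusted p = 0.0206). DESeq2 called 3736 of all genes in this comparison, against 2810 with limma. At an unadjusted p under 0.05 there were 2 of 8 genes, CD1 and WOOLLY, beside 29.1% of all tested genes. WOOLLY averaged 3950.35 ± 147 (SD, n = 2) in WT and 2542 ± 1.77 (SD, n = 2) in lfs (log2 -0.64, SE 0.19, limma adjusted p = 0.0736; 1.55-fold lower, 95% interval 1.13 to 2.13). CD1 averaged 1652 ± 244 (SD, n = 2) and 2527 ± 584 (SD, n = 2) (log2 0.60, SE 0.22, limma adjusted p = 0.122; 1.52-fold higher, 1.06 to 2.18).

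Of the remaining genes, MIXTA differed by a log2 value of 0.56 (SE 0.28, limma adjusted p = 0.245), with both lfs libraries above both of WT. CYP77A differed by 0.72 (SE 0.66) and its interval, 0.568-fold to 4.80-fold, covers changes in either direction. CER6 (log2 0.078, SE 0.22), CD2 (-0.067, SE 0.15), GPAT6 (-0.11, SE 0.52) and CYP86A69 (-0.17, SE 0.34) had estimates near 0. The interval was narrowest for CD2, 0.749-fold to 1.22-fold, and wider for CER6, 0.741-fold to 1.503-fold, CYP86A69, 0.514-fold to 1.55-fold, and GPAT6, 0.395-fold to 2.17-fold. The groups did not overlap for 3 of 8 genes (WOOLLY, CD1 and MIXTA), beside 66.6% of all tested genes. The median log2 difference was 0.0057 over the 8 genes and -0.0010 over all tested genes.

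WOOLLY passed the test in lfs against WT when either TIBA library was left out (limma adjusted p = 0.0108 without TIBA replicate 1 and 0.0106 without TIBA replicate 2, range over all alternatives 0.00927 to 0.363). Leaving them out alters the spread and not the estimate. With only the 4 libraries compared, WOOLLY was called as well (limma adjusted p = 0.0102), and 4566 of all genes were called, against 2810. Between replicates, 27.2% of all tested genes differed over 1.5-fold in TIBA pins, 17.4% in lfs and 7.76% in WT. The part of this in the calls was not tested.

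**Figure D3:**
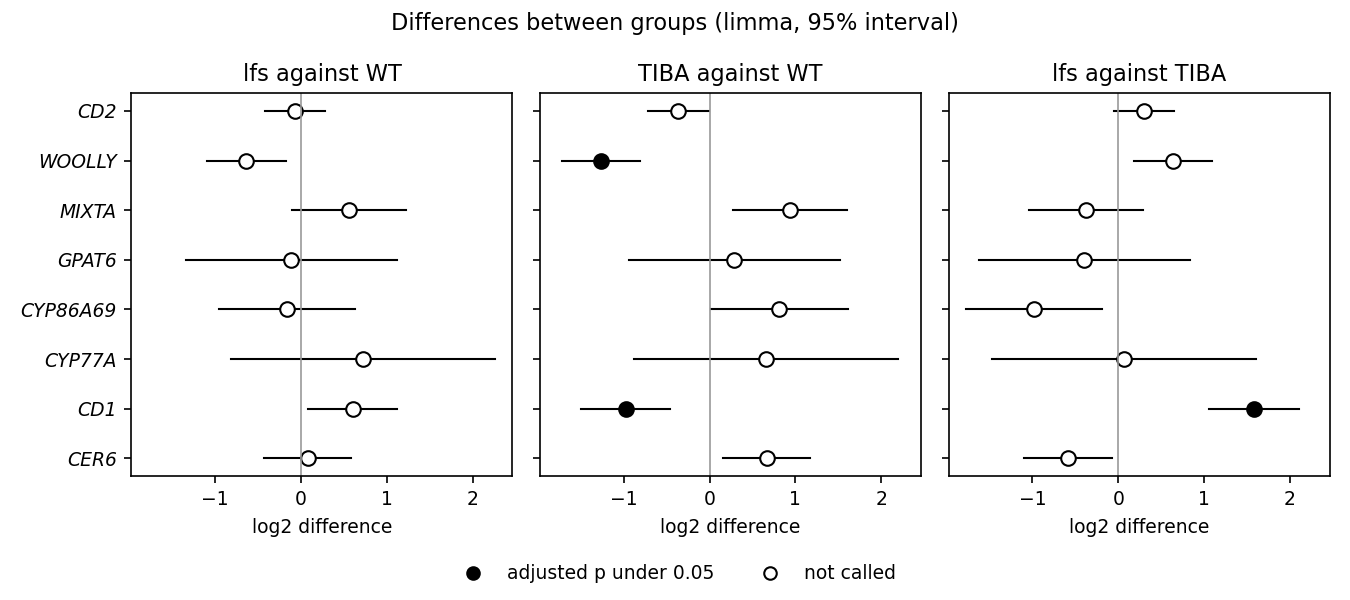
Log2 difference (x axes, from log2(normalized count + 1)) of the 8 tested genes in the 3 comparisons, with 95% intervals from limma; filled points passed an adjusted p of 0.05. WOOLLY (-1.27) and CD1 (-0.98) are filled in TIBA against WT, CD1 (1.58) in lfs against TIBA, and no point in lfs against WT.

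Set against each other, the 2 kinds of leafless apex differed in CD1. It was 2.99-fold higher in lfs than in TIBA pins (95% interval 2.08 to 4.29), at 2527 ± 584 (SD, n = 2) against 842 ± 175 (SD, n = 2) (log2 1.58, SE 0.22, limma adjusted p = 0.0133). This was 1 of 8 genes, beside 4.60% of all tested genes called in either direction and 1.97% called higher in lfs. WOOLLY (log2 0.63, SE 0.19, limma adjusted p = 0.114), CYP86A69 (-0.98, SE 0.34, 0.149), CER6 (-0.59, SE 0.22, 0.166) and CD2 (0.30, SE 0.15, 0.285) did not pass although their groups did not overlap. Groups did not overlap for 5 of 8 genes, beside 48.9% of all tested genes, and 4 of 8 had an unadjusted p under 0.05, beside 23.1%.

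MIXTA (log2 -0.38, SE 0.28), GPAT6 (-0.40, SE 0.52) and CYP77A (0.065, SE 0.66) overlapped between the leafless groups and were not called (limma adjusted p = 0.467, 0.689 and 0.966). Leaving out lfs replicate 1 or lfs replicate 2 ended the call of CD1 (limma adjusted p = 0.0609 and 0.0577, range over all alternatives 1.87e-08 to 0.0609), with log2 values of 1.34 and 1.82. Without lfs replicate 1, CER6 was called instead (log2 -0.93, adjusted p = 0.0485, range 0.0485 to 0.494), and without TIBA replicate 1, WOOLLY was called as well (log2 0.92, adjusted p = 0.0135, range 0.0135 to 0.344). The comparisons against WT share the WT libraries, and each of the 3 groups enters 2 comparisons.

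In the authors' deposited table the same members passed an adjusted p of 0.05. Of TIBA pins against WT, the authors' deposited table gives WOOLLY a log2 value of -1.24 (adjusted p = 1.12e-05) and CD1 one of -0.97 (0.0013). For lfs against TIBA the authors' deposited table calls CD1 alone (log2 1.59, adjusted p = 2.39e-08), and for lfs against WT it calls 0 of 9, with WOOLLY at 0.0659 and CD1 at 0.0857. Those values come from the same 6 libraries.

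The 2 lfs libraries differed from each other across the set. All 8 tested genes were higher in lfs replicate 1 than in replicate 2, whereas 49.8% of all tested genes were. The difference was 3.99-fold for CYP77A, 1.98-fold for CYP86A69, 1.84-fold for GPAT6, 1.68-fold for MIXTA and 1.61-fold for CER6. These 5 exceeded 1.5-fold, as did 17.4% of all tested genes. CD1 (1.39-fold) and CD2 (1.24-fold) differed less, and WOOLLY was at the same level in both (1.00-fold).

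In TIBA pins 5 of 8 genes (CD1, CYP86A69, GPAT6, CYP77A and MIXTA) were higher in replicate 2, beside 52.2% of all tested genes. GPAT6 differed most, 2.47-fold, and was the only one of the 8 over 1.5-fold, a size reached by 27.2% of all tested genes. WOOLLY went the other way, 1.48-fold lower in TIBA replicate 2. In WT 6 of 8 genes were higher in replicate 2, beside 51.1% of all tested genes, with CYP77A (1.74-fold) and GPAT6 (1.55-fold) past 1.5-fold, as were 7.76% of all tested genes.

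The sum of the green tissue list was likewise higher in lfs replicate 1 than in replicate 2 (36278 against 22014) and in TIBA replicate 2 than in replicate 1 (45878 against 31532). The part of that in the spread of the cuticle genes was not tested. This spread within groups bears on the width of the intervals above, which are widest for CYP77A and GPAT6.

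**Figure D4:**
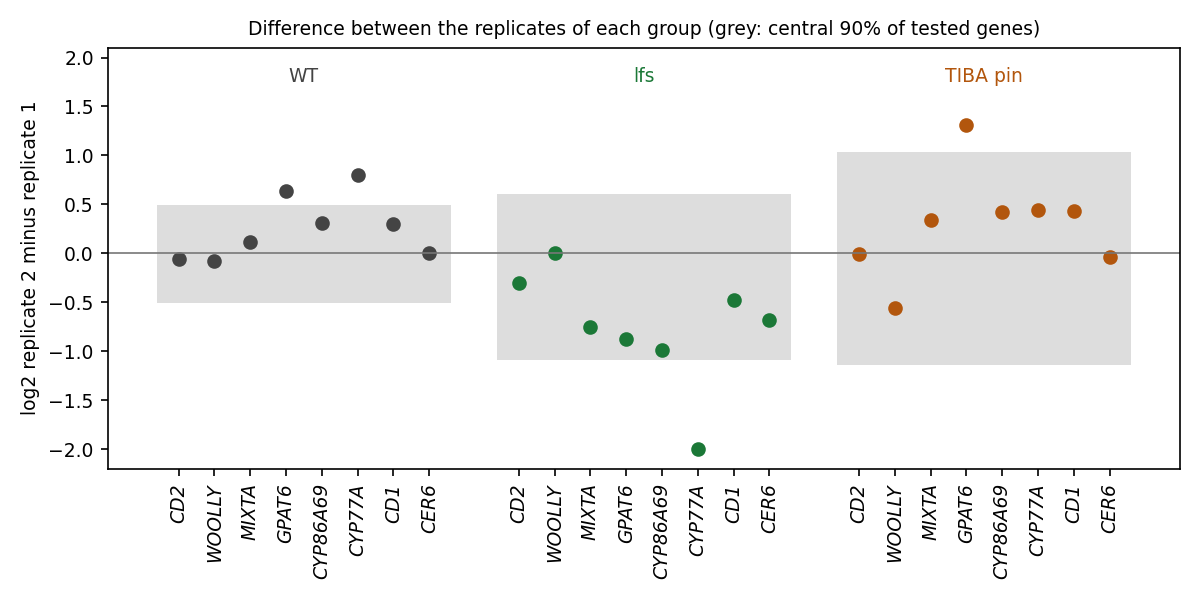
Log2 difference between replicate 2 and replicate 1 (y axis, from log2(normalized count + 1)) of the 8 tested genes in WT, lfs and TIBA pins; grey bands hold the central 90% of all tested genes in that group. In lfs all 8 points lie at or below 0, down to -1.996 for CYP77A, and WOOLLY is at -0.0014.

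Profiles over the 6 libraries, each centred on its own mean on the log2(normalized count + 1) scale, were nearest to each other for CER6 and MIXTA (Euclidean distance 0.56). CYP86A69 was nearest to CER6 (0.59), GPAT6 to CYP86A69 (0.93) and CYP77A to MIXTA (1.10). The HD-ZIP IV genes CD2 and WOOLLY were nearest to each other (1.02), and CD1 was nearest to CD2 but at the greatest distance of all (1.35). The distances are a description of 6 libraries and depend on how much each gene varied: the log2 range over the libraries was 0.45 for CD2, 2.03 for CD1 and 2.12 for CYP77A.

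Other genes of the pathway were counted over 14 further identifiers recalled as cuticle or trichome genes, which the files do not pair with names and which are therefore given without function. This list too was chosen with earlier results of these data known. Of the 14 identifiers, 13 passed the minimum. In lfs against WT 4 rose, 1 fell and 8 did not pass (limma), beside 8.90% and 5.29% of all tested genes called higher and lower. The median log2 difference was 0.074. Of the 4, Solyc01g010910.1 reached 10 in both lfs libraries (31.4 and 37.4) and TIBA replicate 2 (15.6), but in neither WT library (8.08 and 9.53). It was thus tested only because of its lfs values, and its rise carries no weight. The 5 calls became 3 with no minimum and 2 with a minimum in all 6 libraries. In TIBA against WT 3 rose, 0 fell and 10 did not pass, beside 10.8% and 7.77% of all tested genes, with a median of 0.088. Of the 13, 1 was called higher and 1 lower in lfs relative to the pins, and 11 were not called, beside 1.97% and 2.64% of all tested genes. Solyc12g006530.1 was higher (log2 1.67, SE 0.34, limma adjusted p = 0.0407) and Solyc03g116610.2 lower (log2 -2.34, SE 0.49, limma adjusted p = 0.0452). Neither was called in a fit of only the 4 libraries compared (limma adjusted p = 0.119 and 0.15).

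The largest of these changes in lfs against WT were those of Solyc03g120620.2 and Solyc03g116610.2. Solyc03g120620.2 (chromosome 3) stood at 370 and 521 in WT, 2007 and 1287 in lfs and 999 and 1227 in TIBA pins, and rose in lfs (log2 1.87, SE 0.26, limma adjusted p = 0.00504). Solyc03g116610.2 (chromosome 3) stood at 47.6 and 52.9 in WT, 4.05 and 5.69 in lfs and 19.9 and 40.7 in TIBA pins, and fell in lfs (log2 -3.14, SE 0.49, limma adjusted p = 0.00794). In the second case the call was lost without WT replicate 1 (limma adjusted p = 0.0844), WT replicate 2 (0.0816) or lfs replicate 1 (0.053), within a range of 0.000216 to 0.0844 over all alternatives. The 5 identifiers called in lfs against WT became 1 without WT replicate 1, WT replicate 2 or lfs replicate 1, and 3 without lfs replicate 2.

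In TIBA against WT the largest change was that of Solyc03g117800.2 (chromosome 3), at 31.4 and 28.6 in WT, 135 and 42.3 in lfs and 138 and 280.1 in the pins, a log2 difference of 2.67 (SE 0.58, limma adjusted p = 0.0215). It was not called without WT replicate 1 (0.102), WT replicate 2 (0.121) or TIBA replicate 2 (0.083), within a range of 7.75e-05 (DESeq2) to 0.121 over all alternatives. Like most of the 8 tested genes of the set, it was higher in lfs replicate 1 than in replicate 2 and in TIBA replicate 2 than in replicate 1. The 3 called identifiers became 0 without WT replicate 1 and 1 without WT replicate 2 or TIBA replicate 2, and the 2 called between lfs and TIBA pins became 0 without either WT replicate, lfs replicate 2 or TIBA replicate 2 and 1 without lfs replicate 1.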

How the data were processed

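The submitters' processing notes name TopHat2 (2.0.10), HTSeq (0.6.1p1) and DESeq2 (1.6.3); neither a genome build nor an annotation is given in the sources used here. Per-gene signal was deposited as DESeq2-normalized counts, per the file headers, and the values are whole multiples of 1 step per library, as gene counts divided by a size factor give. For each pair of groups the authors also deposited a log2 fold change, a p-value and its adjusted value, per the file headers. All 208332 normalized values (100%) were whole reads within 0.001 reads. No sample column was left unused.

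The test was limma (3.58.1) in R 4.3.3, run on log2(normalized count + 1) with intensity trend and robust moderation, in 1 fit of all 6 libraries. A gene needed a normalized count of 10 in at least 2 libraries (19807 genes). A gene was called at an adjusted p under 0.05 (Benjamini-Hochberg, over all tested genes), and fold changes on this scale understate changes of genes with few reads. The script was run on simulated data in which all groups shared 1 spread. That run checks the script only, and not calls where groups differ in spread. On the recovered reads, edgeR (4.0.16, quasi-likelihood, TMM) called 2744 genes for lfs against WT, 3475 for TIBA against WT and 825 for lfs against TIBA; DESeq2 (1.42.0) and voom were further alternatives.

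Gene names follow the list that defined the set. RefSeq (assembly SLM_r2.1) holds none of the table's identifiers, but 5 of the 9 names are symbols there, all 5 on the chromosome that the identifier carries by convention. All 9 members were named, and of the further identifiers those with the largest called change in a direction. Solyc01g010910.1 was named besides, for how it passed the minimum. Members and lists were chosen with earlier results of these data known.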

Additional observations from a re-analysis of the deposited data

Results flagged for a closer look

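CD1 differed between the 2 leafless groups: lfs exceeded TIBA pins by a log2 value of 1.58 (SE 0.22, limma adjusted p = 0.0133). Both lfs libraries lay above and both TIBA libraries below the 2 of WT. Against WT, however, CD1 was not called in lfs (log2 0.60, limma adjusted p = 0.122). Groups did not overlap for 66.6% of all tested genes in that comparison. The call between lfs and TIBA pins was lost without lfs replicate 1 (log2 1.34) or lfs replicate 2 (log2 1.82).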

How the results depend on the processing

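The number of cuticle genes called in lfs against WT was 0. It was 1 with DESeq2 and with only the 4 libraries compared (WOOLLY in both), and 2 with a weight per group (CD1 and WOOLLY). In that order, these settings called 3736, 4566 and 5020 of all genes, against 2810 as reported. In TIBA against WT the 2 called became 4 with DESeq2 and with only the 4 libraries compared (CER6 and MIXTA added). Without intensity trend and robust moderation, or at an adjusted p under 0.01, they became 1 (WOOLLY). In that order, these settings called 4560, 3045, 2323 and 1062 of all genes, against 3681. In lfs against TIBA the 1 called became 0 without intensity trend and robust moderation or at an adjusted p under 0.01. These settings called 587 and 176 of all genes, against 912. In the fit as reported 4 of 8 genes had an unadjusted p under 0.05 (limma), and edgeR and DESeq2 called 1. Leaving out 1 library at a time gave 0 to 1, 0 to 4 and 0 to 2 called genes in the 3 comparisons. These fits take the spread of a group left with 1 library from the other groups. Signs turned only for differences that were not called, when 1 library was left out: log2 values then ran from -0.22 to 0.086 for CD2, -0.27 to 0.42 for CER6, -0.27 to 1.72 for CYP77A, -0.66 to 0.33 for CYP86A69 and -0.55 to 0.33 for GPAT6 in lfs against WT, from -0.37 to 0.94 for GPAT6 in TIBA against WT, and from -0.93 to 1.06 for CYP77A and -1.05 to 0.26 for GPAT6 in lfs against TIBA. Of 464 log2 differences of members set out under an alternative, 424 kept direction and side of the threshold, 17 came to pass it, 11 no longer passed it and 12 turned sign. Many alternatives, such as the minimum used, the replicate block, a weight per group and the stricter threshold, leave the estimate as it was. The sign could not turn under these, so the tally is no measure of how stable the directions are. Another pseudocount (0.5 or 5), no minimum, a minimum in all 6 libraries, edgeR with either normalization, and voom changed no call of a member; the cause of the changes listed was not tested. Over these alternatives the number of all genes called ran from 536 to 5020 in lfs against WT (2810 as reported), 654 to 6502 in TIBA against WT (3681) and 103 to 2734 in lfs against TIBA (912), and that of the further identifiers from 1 to 6 (5), 0 to 4 (3) and 0 to 3 (2).

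The replicate numbers are not stated to mark shared batches, and differences between replicates correlated across genes at 0.015 (WT and lfs), -0.0515 (WT and TIBA) and -0.14 (lfs and TIBA). With the replicate block 0, 2 and 1 members were called in lfs against WT, TIBA against WT and lfs against TIBA, and 2092, 2743 and 474 of all genes, against 2810, 3681 and 912 without it; the further identifiers called became 2, 3 and 0. With the lfs and TIBA numbers crossed, an alternative chosen after seeing the data, 1 member and 1312 genes were called in the fit of those 4 libraries.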
